A study of Mus musculus with 6 samples.

Results

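The genes described here are 33 genes of fetal macrophages and other leukocytes, measured in whole lung buds of mouse embryos at stage E12.5. They were chosen by name and fall into 21 macrophage genes, 3 complement genes, which encode the chains of C1q, and 9 pan-leukocyte genes. Each member had 1 probe set that carries its symbol alone, so all 33 were measured, out of 22180 genes in the series. The mutant group was 3 lung samples of genotype Fzd2Flox/Flox; Shh cre/+, and the control group was 3 lung samples of genotype Shh cre/+, so both groups carry the Cre allele at Shh. Shh is expressed in lung epithelium, which directs the deletion of the Wnt receptor gene Fzd2 to the epithelium and not to blood-derived cells. The study asked which genes depend on Fzd2 signalling in that epithelium. RNA came from dissected lung buds, with 100 ng labelled per array, and the labels name no sorting of cells. The values are log2 intensities from RMA, which sets the arrays to a common distribution, so a difference is relative to the bulk of genes. The labels call the arrays biological replicates and do not say whether a replicate was 1 embryo or a pool, so the p-values measure the spread between these arrays.

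Macrophages of the early lung arise from progenitors of the yolk sac and fetal liver and settle in the mesenchyme while the airways branch. They need the receptor Csf1r and the transcription factor PU.1, which Spi1 encodes, and they clear dying cells through scavenger receptors, Fc receptors and a strong lysosomal system. Several of their receptors have no signalling tail and act through 2 small adaptors with an activation motif called ITAM, Fcer1g and Tyrobp. C1q, the first component of the classical complement pathway, is made mainly by macrophages.

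Of the 33 genes, 29 had a higher mean in mutant than in control lungs, against 54.8% of all genes. The median log2 difference, mutant minus control, was 0.15 against 0.01 over all genes. No single gene passed the test: limma with Benjamini-Hochberg adjustment over all genes called 0 of the 33 at an adjusted p under 0.05, where it called 0.018% of all genes as higher and 0.0451% as lower. The adjusted p of the members ran from 0.104 to 0.973. At an unadjusted p under 0.05, 11 members were higher and 0 were lower, against a background of 7.34% of all genes higher and 5.15% lower. In 12 members all mutant arrays lay above all control arrays, against 10.6% of all genes, and in 0 they lay below, against 8.83%. A two-sided exact permutation test of 1 gene cannot give less than p = 0.1 with 3 arrays against 3. In whole lungs more cells of a type and more RNA per cell cannot be told apart.

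The targeted gene, Fzd2, had log2 values of 9.67, 9.07 and 9.54 in mutant lungs and 9.57, 9.82 and 9.75 in control lungs. The groups overlapped, since mutant replicate 1 exceeded control replicate 1. The log2 difference was -0.29 (SE 0.15, limma adjusted p = 0.475). Whole lungs include mesenchyme, where the deletion is not directed, and whether the probe set lies in the deleted part was not tested. The lung epithelial factor gene Nkx2-1 was at 10.05 to 10.09 in mutant lungs and 10.41 to 10.57 in control lungs. In 2 arrays genes of another tissue stood out, read as a list's median log2 deviation from the control mean. That of 11 adipose tissue genes was 2.52 in mutant replicate 2 and between -0.11 and 0.16 in each other array. That of 13 small intestine genes was 1.59 in control replicate 1 and between -0.83 and -0.61 elsewhere.

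The plot of each gene in each array shows that the members did not move as a block.

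**Figure D1:**
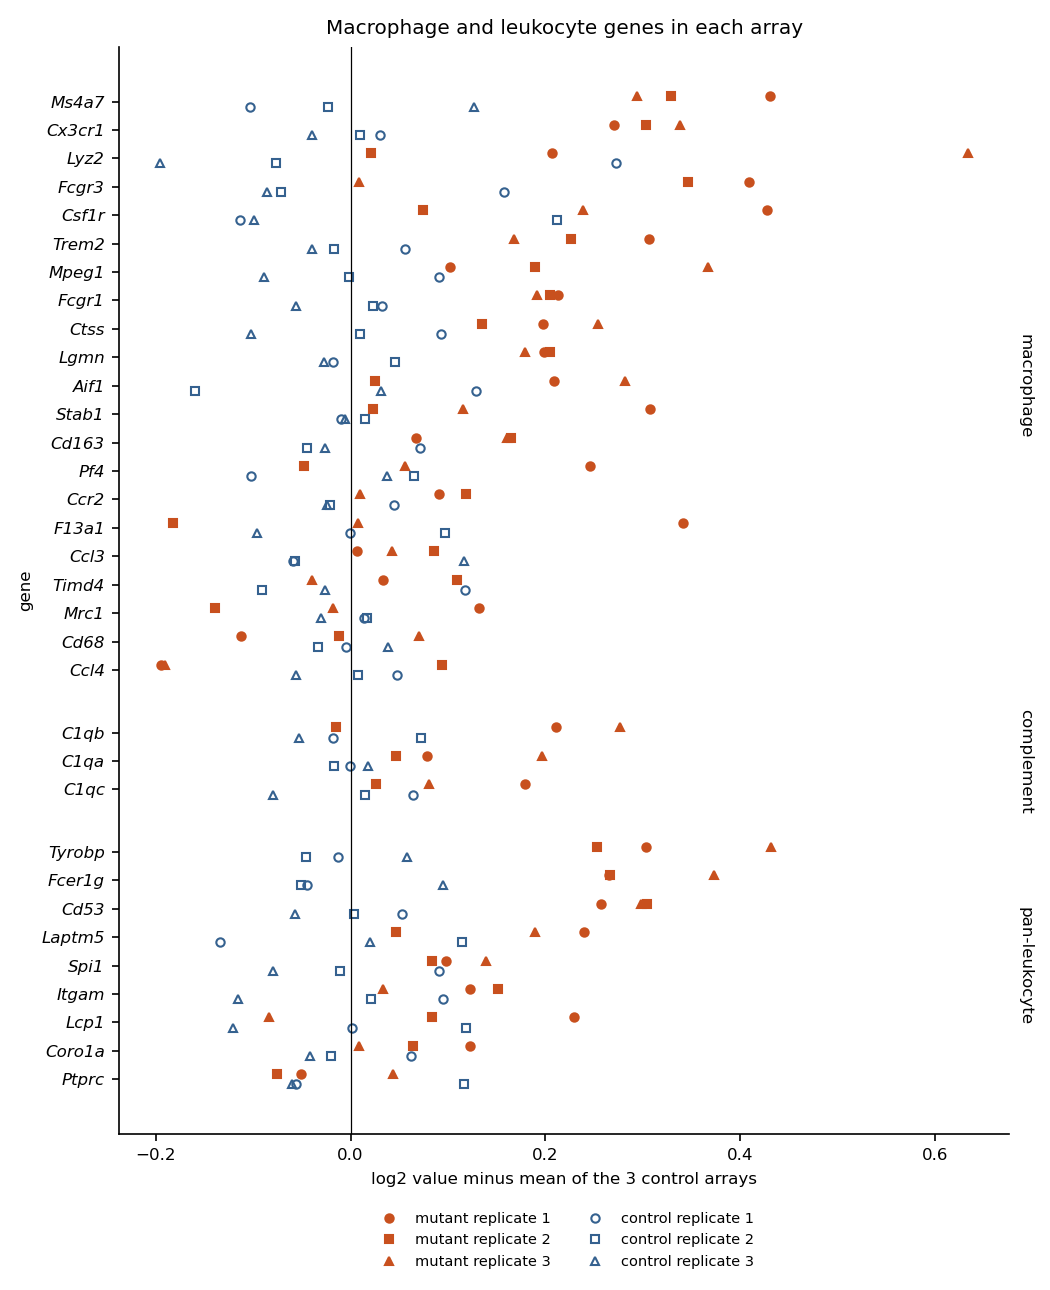
Each row is a gene and each point an array, placed by its log2 value minus the mean of the 3 control arrays; filled orange symbols are mutant and open blue symbols control arrays, with the shape giving the replicate. In Cx3cr1, Tyrobp, Fcer1g, Cd53, Ms4a7, Fcgr1, Lgmn, Trem2, Ctss, Mpeg1, Stab1 and C1qa the mutant points lie to the right of all control points, and in Ptprc, Cd68 and Mrc1 the groups overlap.

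Among the members the widest gap between the groups was in a receptor of macrophages and microglia. Cx3cr1, the receptor for the chemokine fractalkine, had log2 values of 8.94, 8.98 and 9.01 in mutant lungs, against 8.70, 8.68 and 8.63 in control lungs. The mutant arrays had an SD of 0.03, and the lowest of them was 0.24 above the highest control. The log2 difference was 0.30 (SE 0.05, n = 3 and 3), or 23.4% higher, with the smallest p of all members (limma adjusted p = 0.104). Csf1r, the receptor for the macrophage growth factors Csf1 and Il34, had 8.82, 8.47 and 8.63 in mutant lungs and 8.28, 8.61 and 8.30 in control lungs. Here the groups overlapped, because control replicate 2 exceeded mutant replicate 2, and the log2 difference of 0.25 (SE 0.12) had a limma adjusted p of 0.43. Without mutant replicate 1 that difference was 0.16. Ccr2, the chemokine receptor of monocytes, was dim, below the 30th percentile of all genes, with a log2 difference of 0.07 (SE 0.05).

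Among receptors for dying cells and other cargo, 2 of 5 separated the groups with the mutant arrays above, against 10.6% of all genes. Trem2, a lipid receptor of macrophages and microglia, had log2 values of 8.12, 8.04 and 7.99 in mutant lungs and 7.87, 7.80 and 7.78 in control lungs. All mutant arrays were the higher ones, and the log2 difference was 0.23 (SE 0.06, limma adjusted p = 0.212). Stab1, a scavenger receptor that endothelium also makes, had a log2 difference of 0.15 (SE 0.07), with a gap between the groups of only 0.01. The mannose receptor gene Mrc1 had 9.75, 9.48 and 9.60 in mutant lungs and 9.63, 9.63 and 9.59 in control lungs. Its mutant arrays lay on both sides of the controls, and the log2 difference was -0.01 (SE 0.07, 95% interval -0.18 to 0.16). The haemoglobin scavenger receptor gene Cd163 and the phosphatidylserine receptor gene Timd4 were dim, with log2 differences of 0.13 (SE 0.06) and 0.03 (SE 0.07).

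Both Fc receptors for immunoglobulin G had higher means. Fcgr1, the high-affinity receptor, had log2 values of 7.57, 7.56 and 7.55 in mutant lungs and 7.39, 7.38 and 7.30 in control lungs. The mutant arrays were almost equal and all above the controls, with a log2 difference of 0.20 (SE 0.05, limma adjusted p = 0.211). Fcgr3, a low-affinity receptor, had 7.83, 7.77 and 7.43 in mutant lungs and 7.58, 7.35 and 7.34 in control lungs. Mutant replicate 3 lay below control replicate 1, and the log2 difference was 0.25 (SE 0.12, limma adjusted p = 0.42).

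The ITAM adaptors that carry the signals of these receptors had 2 of the larger log2 differences on the list. Tyrobp, also called DAP12 and the partner of Trem2, had log2 values of 8.82, 8.77 and 8.95 in mutant lungs and 8.51, 8.47 and 8.58 in control lungs. The lowest mutant array was 0.19 above the highest control, and the log2 difference was 0.33 (SE 0.06, limma adjusted p = 0.149). Fcer1g, the common gamma chain of Fc receptors, had 9.12, 9.12 and 9.22 in mutant lungs and 8.81, 8.80 and 8.95 in control lungs. It too separated the groups in every array, with a log2 difference of 0.30 (SE 0.06, limma adjusted p = 0.168). Of 10 other genes of ITAM signalling and its inhibition, 7 had higher and 3 lower means, with a median log2 difference of 0.02. The mutant arrays lay above all controls in 1, Sirpa, against 10.6% of all genes. By limma 0 had an unadjusted p under 0.05. Syk, the kinase that binds phosphorylated ITAMs, had a log2 difference of -0.12 (SE 0.06), the inhibitory receptor gene Sirpa 0.12 (SE 0.05) and the adaptor gene Blnk 0.15 (SE 0.08).

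The lysosome and phagosome genes separated the groups in 3 of 5 cases with the mutant arrays above, against 10.6% of all genes. Lgmn, the lysosomal protease legumain, had log2 values of 10.25, 10.26 and 10.23 in mutant lungs and 10.04, 10.10 and 10.03 in control lungs. The mutant arrays stood together above the controls, with a log2 difference of 0.19 (SE 0.05, limma adjusted p = 0.212). Ctss, the cysteine protease cathepsin S, had 7.85, 7.78 and 7.90 in mutant lungs and 7.74, 7.66 and 7.55 in control lungs. The gap between its groups was 0.04 and the log2 difference 0.20 (SE 0.06, limma adjusted p = 0.315). Mpeg1, which encodes the pore-forming protein perforin-2, had 6.50, 6.59 and 6.77 in mutant lungs and 6.49, 6.40 and 6.31 in control lungs. Mutant replicate 1 was barely above control replicate 1, the probe set was dim, and the log2 difference was 0.22 (SE 0.08, limma adjusted p = 0.349), or 0.15 without mutant replicate 3.

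Cd68 and Lyz2, both in wide use as macrophage markers, did not separate the groups. Cd68, a glycoprotein of late endosomes, had 8.91, 9.01 and 9.09 in mutant lungs and 9.02, 8.99 and 9.06 in control lungs. The groups lay on top of each other, with a log2 difference of -0.02 (SE 0.06, 95% interval -0.16 to 0.12). Lyz2, the lysozyme gene of myeloid cells, had 6.79, 6.60 and 7.21 in mutant lungs and 6.85, 6.50 and 6.38 in control lungs. Mutant replicate 3 was the highest array and control replicate 1 the second, and the log2 difference of 0.29 (SE 0.17, limma adjusted p = 0.52) was 0.11 without mutant replicate 3. Leaving out either mutant replicate 2 or control replicate 1 gave 0.42, and leaving out both gave 0.56. Its close paralog Lyz1, a Paneth cell gene that is not a member, was at 10.96 in control replicate 1 and at most 6.05 in each other array. Whether the Lyz2 probe set also reads Lyz1 was not tested.

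Ms4a7, a tetraspan membrane protein of macrophages, had log2 values of 6.39, 6.28 and 6.25 in mutant lungs and 5.85, 5.93 and 6.08 in control lungs. Its log2 difference of 0.35 (SE 0.07, limma adjusted p = 0.171) was the highest of the members, 27.5% higher in mutants, on a dim probe set. Aif1, the calcium-binding protein Iba1, overlapped between the groups, with a log2 difference of 0.17 (SE 0.09). The 4 secreted factors had a median log2 difference of 0.05, and 0 of them separated the groups. Pf4, a chemokine of platelets and fetal macrophages, had a log2 difference of 0.08 (SE 0.08), F13a1, which encodes the A subunit of coagulation factor XIII, 0.06 (SE 0.13), and the inflammatory chemokine gene Ccl3 0.04 (SE 0.06). Ccl4, a neighbour and relative of Ccl3, was the member with the lowest difference, -0.10 (SE 0.08).

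The 3 complement genes encode the A, B and C chains that assemble into C1q, and they neighbour each other on chromosome 4. C1qa had log2 values of 7.92, 7.89 and 8.04 in mutant lungs and 7.84, 7.83 and 7.86 in control lungs. C1qb had 8.95, 8.73 and 9.02 in mutant lungs and 8.73, 8.82 and 8.69 in control lungs. C1qc had 7.40, 7.25 and 7.30 in mutant lungs and 7.29, 7.24 and 7.14 in control lungs. All 3 chains had higher means in mutants, but mutant replicate 2 lay within or next to the control range in each, and C1qa alone separated the groups, by a gap of 0.03. The log2 differences were 0.11 for C1qa (SE 0.05), 0.16 for C1qb (SE 0.08) and 0.10 for C1qc (SE 0.06), with limma adjusted p-values of 0.461, 0.468 and 0.551. Without mutant replicate 2 the C1qb difference was 0.24, and without mutant replicate 3 it was 0.10. Without mutant replicate 3 that of C1qa was 0.06, and without mutant replicate 1 that of C1qc was 0.05. The C1qc difference was 0.06 without control replicate 3 and 0.16 without mutant replicate 2 and control replicate 1 together.

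Of 15 other complement genes, 12 had higher means, with a median log2 difference of 0.11. At an unadjusted p under 0.05 by limma, 2 were higher and 0 lower, against 7.34% and 5.15% of all genes. The anaphylatoxin receptor gene C3ar1, which macrophages express, had a log2 difference of 0.20 (SE 0.06), Masp1, a protease of the lectin pathway, 0.19 (SE 0.08) and the receptor gene C5ar2 0.11 (SE 0.05). In all 3 the mutant arrays lay above all controls, as they did in 4 of the list (26.7%), against 10.6% of all genes. For Masp1 the lowest mutant array, at 7.805, was barely above the highest control, at 7.802. By limma 0 of the list passed the adjusted threshold.

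The pan-leukocyte genes split between those with a clear gap and those with none. Cd53, a tetraspanin of leukocyte membranes, had log2 values of 7.86, 7.91 and 7.90 in mutant lungs and 7.66, 7.61 and 7.55 in control lungs. The gap of 0.20 between the groups was wider than the range within either, and the log2 difference was 0.29 (SE 0.05, limma adjusted p = 0.129). Ptprc, the gene of CD45, the defining surface protein of leukocytes, had 6.55, 6.52 and 6.64 in mutant lungs and 6.54, 6.71 and 6.54 in control lungs. The highest array was a control, the probe set was dim, and the log2 difference was -0.03 (SE 0.07, 95% interval -0.18 to 0.13).

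Spi1 had log2 values of 7.91, 7.90 and 7.95 in mutant lungs and 7.91, 7.80 and 7.74 in control lungs. Control replicate 1 reached the mutant range, and the log2 difference was 0.11 (SE 0.06, limma adjusted p = 0.478). Itgam, the integrin CD11b of myeloid cells, had 7.07, 7.10 and 6.98 in mutant lungs and 7.04, 6.97 and 6.83 in control lungs. Its groups overlapped too, with a log2 difference of 0.10 (SE 0.07). Without control replicate 3 the differences were 0.07 for Spi1 and 0.04 for Itgam, and without mutant replicate 2 and control replicate 1 together they were 0.16 and 0.13. Laptm5, a lysosomal membrane protein of blood cells, had a log2 difference of 0.16 (SE 0.08). The actin-binding proteins Lcp1 (L-plastin) and Coro1a (coronin 1A) had 0.08 (SE 0.09) and 0.07 (SE 0.05), and both overlapped between the groups.

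**Figure D2:**
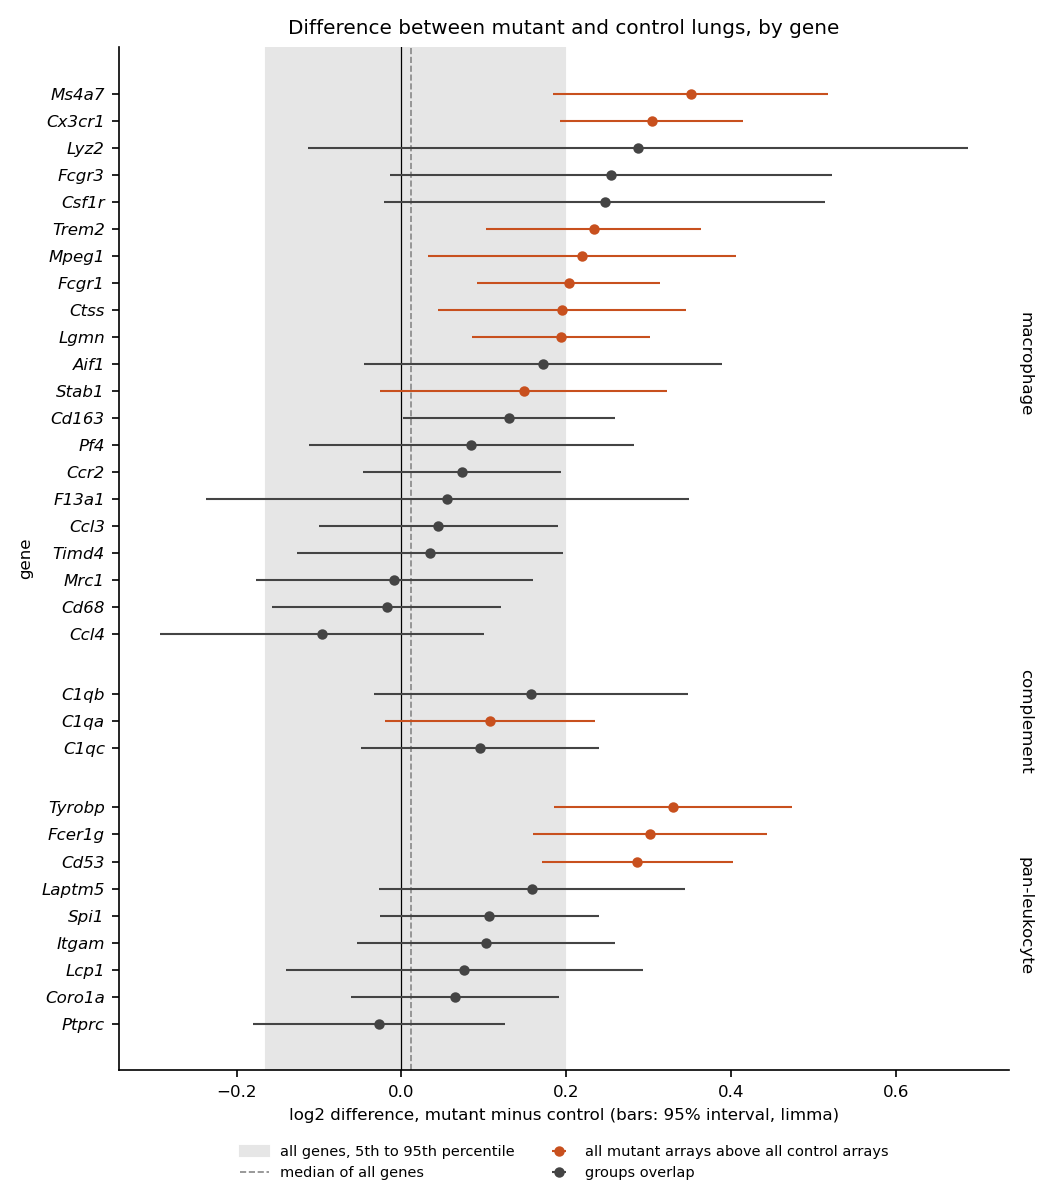
Each row is a gene, the point is its log2 difference, mutant minus control, and the bar the 95% interval from limma; orange marks the 12 genes whose 3 mutant arrays all lie above the 3 control arrays. The grey band holds the middle of all genes, from -0.16 at the 5th to 0.20 at the 95th percentile, and 11 of the 33 points lie to the right of it, among them Ms4a7, Tyrobp, Cx3cr1, Fcer1g and Cd53.

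By class, the median log2 difference was 0.17 for the macrophage genes (18 of 21 with a higher mean, 8 at an unadjusted p under 0.05), 0.11 for the complement genes (3 of 3 and 0) and 0.11 for the pan-leukocyte genes (8 of 9 and 3). Of all genes 54.8% had a higher mean, and 7.34% were higher at an unadjusted p under 0.05 by limma. No test was made of the difference between the classes. Of all members 23 lay above 0.08, the 75th percentile of all genes. The share of members with a higher mean was also read by the level of their probe sets. Among the 18 members at or above the 50th percentile of mean expression, 16 had higher means with a median log2 difference of 0.15, where all genes in that range had a median of -0.02 and 41.2% had higher means. Among the 9 between the 30th and 50th percentiles, 8 had higher means with a median of 0.16, against a median of 0.06 and 71.3% of all genes there. For the 6 dim members the median was 0.10, against 0.03 for all dim genes. Between the 30th and 50th percentiles, 1 of 9 members was higher at an unadjusted p under 0.05 by limma. The share of all genes there was 12.8%. In 1 of the 9 the mutant arrays lay above all controls, against 16.7%, so by these counts the members did not exceed other genes there. At or above the 50th percentile the counts were 7 and 9 of 18, against 5.64% and 7.997%. For dim members they were 3 and 2 of 6, against 6.55% and 10.7%.

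PU.1 binds purine-rich DNA around the core GGAA, and many myeloid promoters lack a TATA box. The 250 bases before the start of 28 members, from RefSeq on GRCm38.p6, were searched on both strands for 6 short strings; strings and window were chosen after counts in a longer window had been seen. GAGGAA was present in 17 of 28 members (60.7%), against 25.9% of 27025 genes, and TATAAA in 4 of 28 (14.3%), against 14.3% of genes. AGGAAG, which overlaps GAGGAA in part, was in 53.6% of members and 32.3% of genes, and GGAAGTG in 21.4% and 9.77%. The longer GAGGAAGT was in 2 members (7.14%) and 2.79% of genes, and TGACTCA, the site of AP-1 factors, in 1 (3.57%) and 5.16%. Of the 10 members with a promoter whose groups did not overlap, 5 held GAGGAA, and of the other 18, 12 did. Csf1r, Spi1, Tyrobp, C1qa and Ccl4 were not searched.

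The promoters of 5 members are shown for what they share and lack: Cd53 and Trem2, which separated the groups and hold the string close to the start, C1qb and C1qc, chains of 1 protein that hold it at different distances, and Fcer1g, which separated the groups and lacks GAGGAA in this window. Capitals mark GAGGAA or its reverse complement, each sequence is written 5′ to 3′ on the strand of its gene, and it ends 1 base before the start. The first capital lies 39 bases before the start in Cd53, 40 in Trem2, 30 in C1qb and 193 in C1qc. AGGAAG, which is not marked on its own, is present on either strand in Fcer1g, Trem2, C1qb and C1qc and absent in Cd53.
Cd53, chr3:106790150-106790399, minus strand: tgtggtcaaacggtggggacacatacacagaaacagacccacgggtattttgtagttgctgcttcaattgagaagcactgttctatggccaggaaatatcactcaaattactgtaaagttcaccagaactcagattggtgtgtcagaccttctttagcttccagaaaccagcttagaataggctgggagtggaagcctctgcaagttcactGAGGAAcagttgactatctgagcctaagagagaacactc
Trem2, chr17:48346151-48346400, plus strand: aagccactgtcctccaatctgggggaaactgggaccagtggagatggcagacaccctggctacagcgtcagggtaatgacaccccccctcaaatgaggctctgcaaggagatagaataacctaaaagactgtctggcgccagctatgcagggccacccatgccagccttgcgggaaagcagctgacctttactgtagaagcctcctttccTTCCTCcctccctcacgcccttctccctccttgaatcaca
C1qb, chr4:136886201-136886450, minus strand: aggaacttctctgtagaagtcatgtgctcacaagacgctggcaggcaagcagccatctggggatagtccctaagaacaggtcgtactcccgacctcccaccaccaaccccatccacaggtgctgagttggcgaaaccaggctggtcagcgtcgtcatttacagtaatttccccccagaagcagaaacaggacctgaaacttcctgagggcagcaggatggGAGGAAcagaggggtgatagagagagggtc
C1qc, chr4:136892915-136893164, minus strand: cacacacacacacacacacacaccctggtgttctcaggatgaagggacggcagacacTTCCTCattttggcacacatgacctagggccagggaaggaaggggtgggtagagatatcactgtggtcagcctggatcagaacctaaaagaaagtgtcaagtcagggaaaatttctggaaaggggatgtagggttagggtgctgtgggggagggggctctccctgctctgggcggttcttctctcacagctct
Fcer1g, chr1:171234350-171234599, minus strand: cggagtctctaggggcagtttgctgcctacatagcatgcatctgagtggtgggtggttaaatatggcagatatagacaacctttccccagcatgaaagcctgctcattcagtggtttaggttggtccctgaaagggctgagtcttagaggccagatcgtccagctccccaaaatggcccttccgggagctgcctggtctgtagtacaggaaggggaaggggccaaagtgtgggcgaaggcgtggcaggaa
A match is a description of letters and not a measured binding site.

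Other genes of the same system were read from lists that do not hold the members. Of all genes 54.8% had higher means, and 7.34% were higher and 5.15% lower at an unadjusted p under 0.05 by limma. In 10.6% all mutant arrays lay above all controls, and in 8.83% below. Of 10 growth factors, attractants and receptors of macrophages, 10 had higher means, with a median log2 difference of 0.10, and 3 were higher at an unadjusted p under 0.05. The chemokine gene Cxcl12, made by mesenchyme, had log2 values of 10.26, 10.26 and 10.31 in mutant lungs and 9.99, 10.13 and 9.91 in control lungs, with a log2 difference of 0.26 (SE 0.06, limma adjusted p = 0.215). Il34, a ligand of Csf1r, had a log2 difference of 0.14 (SE 0.05) and the cytokine receptor gene Csf2rb 0.19 (SE 0.08). The other Csf1r ligand, Csf1, chosen with its values in view, had 0.07 (SE 0.10) with groups that overlap.

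Of 17 further macrophage genes, 14 had higher means, with a median log2 difference of 0.12, and 6 were higher and 0 lower at an unadjusted p under 0.05. Apoe, a lipid carrier of macrophages, had a log2 difference of 0.28 (SE 0.07), the sialic acid receptor gene Cd33 0.31 (SE 0.08) and the progranulin gene Grn 0.18 (SE 0.05). All 3 separated the groups. Adgre1, the gene of the macrophage marker F4/80, was chosen with its values in view. It had 8.44, 7.94 and 8.18 in mutant lungs and 7.81, 7.81 and 7.95 in control lungs, so mutant replicate 2 lay just below control replicate 3. Of 9 macrophage transcription factors, 7 had higher means, and the groups did not overlap in 5, with the mutant arrays above in 3 and below in 2. Among these were Id3 (0.30, SE 0.08) and Cebpb (0.21, SE 0.07) above the controls and Ikzf1 (-0.16, SE 0.06) below them. Of 12 lysosomal genes, 11 had higher means with a median of 0.16, and 5 were higher at an unadjusted p under 0.05, among them Ctsd (0.27, SE 0.07), Ctsb (0.17, SE 0.05) and Hexa (0.17, SE 0.06). Lysosomal genes are active in all cells. How much of the signal of the genes in these 4 lists comes from macrophages was not tested. None of the genes of these 4 lists passed the adjusted threshold by limma.

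Markers of neutrophils, T and NK cells, mast cells and B cells were mostly dim. Of 11 neutrophil genes 8 were dim, of 9 T and NK cell genes 7, of 7 mast cell genes 6 and of 6 B cell genes 4. Fewer were dim among 6 monocyte genes (2), 7 erythroid genes (2), 4 antigen presentation genes (1) and 6 megakaryocyte and platelet genes (0). The mostly dim lists had medians above 0 in mutants, as had all dim genes, of which 66.5% had higher means. The neutrophil list had a median log2 difference of 0.09 (10 of 11 with higher means) and the T and NK cell list 0.06 (7 of 9). The mast cell list had 0.05 (6 of 7) and the B cell list 0.10 (6 of 6). Of the B cell genes 3 were higher at an unadjusted p under 0.05 by limma, against 7.34% of all genes. In 4 of them the mutant arrays lay above all controls, against 10.6% of all genes. B cell genes with the smallest p were Igll1 (0.24, SE 0.07), Pax5 (0.23, SE 0.08) and Ms4a1 (0.14, SE 0.06). Of 6 monocyte genes 3 had higher means, with a median of 0.03. The 3 with the smallest p were the chitinase-like gene Chil3 (-0.29, SE 0.09), Ly6c2 (0.18, SE 0.09) and Hp (0.30, SE 0.18). Of 7 erythroid genes 2 had higher and 5 lower means, with a median of -0.03. Of 4 antigen presentation genes 1 had a higher and 3 a lower mean, with a median of -0.09, but control replicate 1 alone was high. That list's median deviation from the control mean was 0.53, -0.36 and -0.28 in control replicates 1, 2 and 3. In mutant replicates 1, 2 and 3 it was -0.15, -0.07 and -0.11. Megakaryocyte and platelet genes, which matter for Pf4, had a median of 0.00, with Itgb3 at 0.09 (SE 0.07), Ppbp at -0.10 (SE 0.11) and Gp9 at 0.05 (SE 0.09).

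Markers of the solid compartments of the lung also differed. All 12 epithelial genes had lower mutant means (median -0.29 on the log2 scale), and 1 of them, Esrp1, passed the threshold (limma adjusted p = 0.0334). At an unadjusted p under 0.05 by limma, 10 were lower, against 5.15% of all genes. In 11 the mutant arrays lay below all controls, against 8.83% of all genes. The epithelial list's median deviation from the control mean was -0.24, -0.39 and -0.30 in mutant replicates 1 to 3. Of 12 mesenchyme genes, 7 had higher and 5 lower means, with a median of 0.17, and Dcn passed the threshold (limma adjusted p = 0.0238). At an unadjusted p under 0.05 by limma, 7 (58.3%) were higher and 0 lower, where 33.3% of the members and 7.34% of all genes were higher. In 6 (50%) the mutant arrays lay above all controls, against 36.4% of the members and 10.6% of all genes. Of 10 endothelial genes, 3 had higher means, with a median of -0.04. Since the values are relative within an array, these shifts stand beside those of the macrophage genes, and their part in the result was not tested.

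The median deviation of the 33 members from the control mean was 0.21, 0.09 and 0.16 in mutant replicates 1, 2 and 3, against 0.03, 0.00 and -0.04 in control replicates 1, 2 and 3. Each mutant array lay above each control array, and 30, 27 and 29 members stood above their control mean in mutant replicates 1, 2 and 3. Mutant replicate 2 was the lowest of the 3 mutant arrays in 15 members, and control replicate 3 was the lowest of all 6 arrays in 16.

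**Figure D3:**
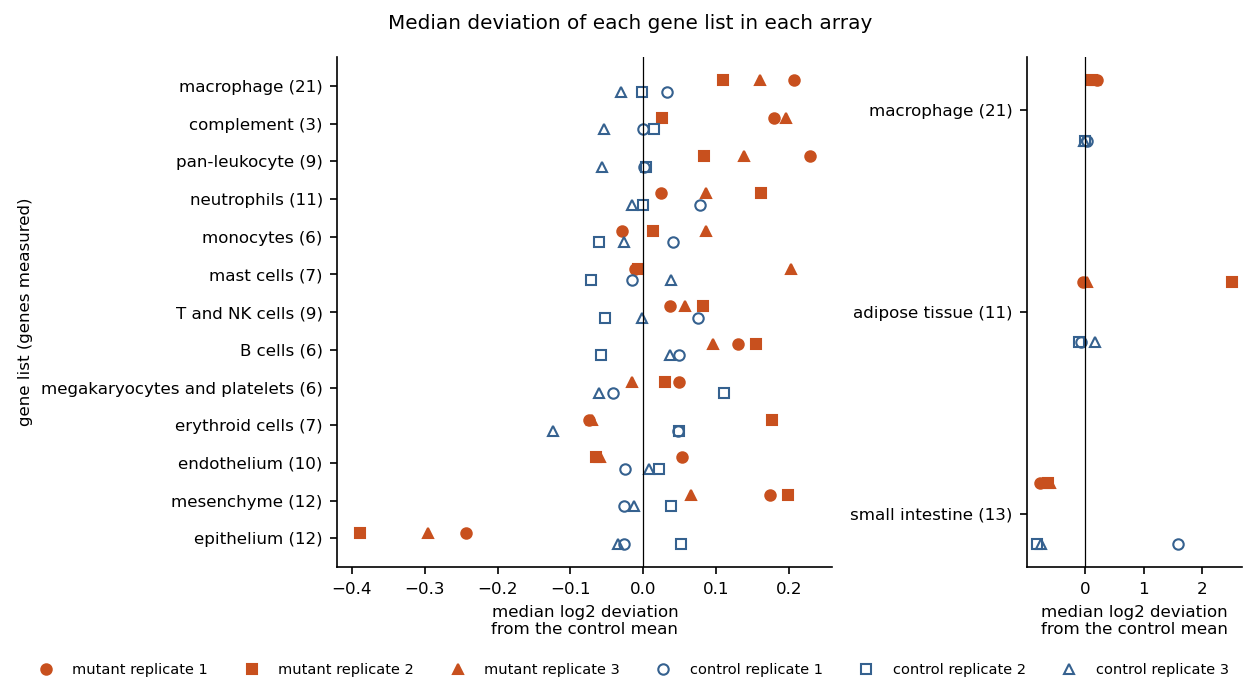
Each row is a gene list with its number of measured genes, and each point the list's median log2 deviation from the control mean in 1 array; filled orange symbols are mutant and open blue symbols control arrays, and the right panel has a wider scale. In the macrophage, complement and pan-leukocyte lists mutant replicate 2 is the lowest mutant point, and in the right panel it stands at 2.52 for adipose tissue genes, while control replicate 1 stands at 1.59 for small intestine genes.

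Each array that stands apart was left out in turn, and then both. Without both arrays the members' median log2 difference was 0.17. Then 15 members were higher at an unadjusted p under 0.05, against 7.75% of all genes, and in 24 the remaining mutant arrays lay above the remaining controls, against 26.5% of all genes. The 3 Y-linked genes, a list added later, averaged 5.63 in control replicate 2 and at least 10.39 in each other array. Without control replicate 2 the members' median was 0.14 and 11 were higher at an unadjusted p under 0.05, against 4.84% of all genes in that fit.

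**Figure D4:**
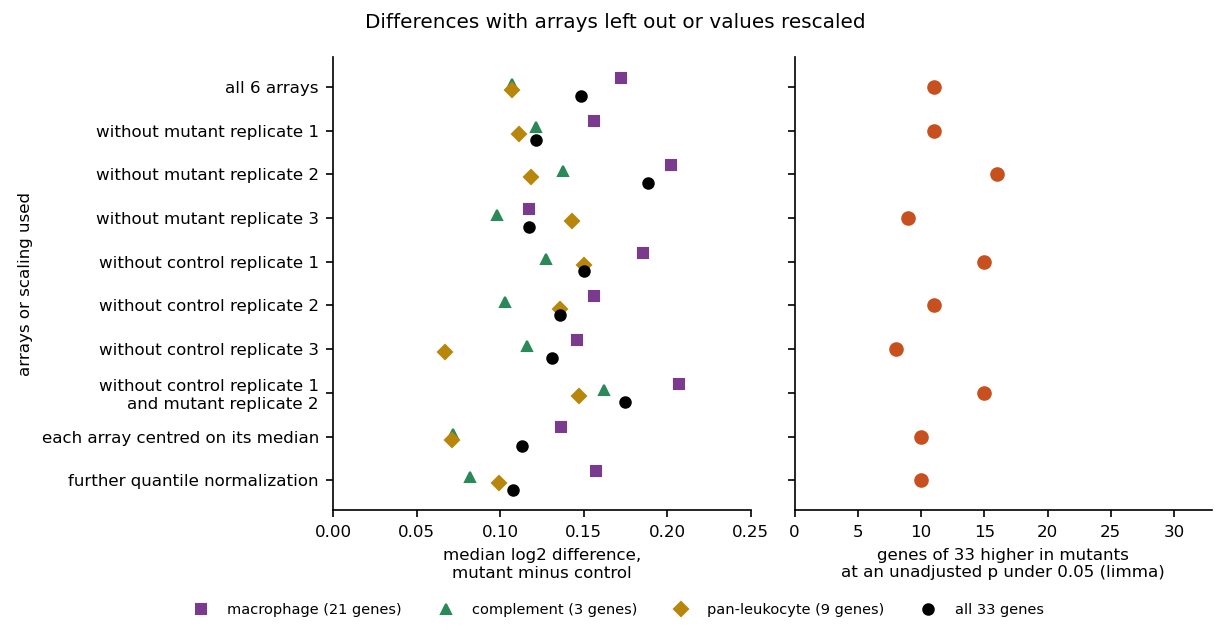
Rows are sets of arrays or scalings; the left panel gives the median log2 difference, mutant minus control, of all 33 genes and of the 3 classes, and the right panel the number of genes higher in mutants at an unadjusted p under 0.05 by limma. With 1 array left out the median of all 33 genes stays between 0.12 and 0.19 and the count between 8 and 16.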

How the data were processed

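The authors deposited log2 expression values for 6 arrays. Per the submitters' processing notes the tools were oligo and RMA, with versions not given in the sources used here; the log2 scale was read from the values (3.55 to 14.04, array medians 7.29 to 7.32). Of 41345 probe sets, 23521 carried 1 symbol, 1814 several, and 16010 were unnamed here. Per gene the probe set with the highest mean was used. All 33 members matched RefSeq by Entrez ID with the same symbol.

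The 22180 genes were fitted on group alone in R 4.3.3 by limma 3.58.1 (lmFit, then eBayes, with two-sided p-values adjusted by Benjamini-Hochberg over all genes and a threshold of 0.05), after a test on simulated data. Dim means below the 30th percentile of mean expression. The number of arrays limits the precision.

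The members, lists, tests and motifs were chosen with earlier results of these data known. All members are named; values per array are given for the 10 with the smallest p, the C1q chains, Ptprc, Csf1r, Cd68, Spi1, Mrc1, Lyz2 and Itgam, and for Fcgr3, chosen later. Of other lists the 3 genes with the smallest p, and any past the threshold, could be named. Genes outside these rules are said to be chosen with values in view. Tables and plots used Python 3.11.15 and matplotlib 3.10.9. Alternatives covered scaling, filters, probe set summary, variance model, array weights, the replicate block and left-out arrays.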

Additional observations from a re-analysis of the deposited data

How the results depend on the processing

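In 17 alternatives (other scalings, filters, probe set summaries, variance models, array weights, the replicate block and arrays left out) the median log2 difference of the members and of each class stayed above 0. Over the 11090 genes above the 50th percentile, 18 members were tested, and 1, Cx3cr1 (0.30, limma adjusted p = 0.0427), passed the threshold. With fewer genes tested, limma called 50 of all genes in that fit, against 14 in the main fit. At an unadjusted p under 0.05, 7 members were higher there, against 6.17% of all genes, and the pan-leukocyte median was 0.20. No other alternative called a member. Without control replicate 1 and mutant replicate 2 together, 24 members separated the groups, against 26.5% of all genes, and 1, Ccl4, was lower at an unadjusted p under 0.05. With 1 array left out, 13 to 20 members had all mutant arrays above all controls, against 14.6 to 19.6% of all genes, 8 to 16 were higher at an unadjusted p under 0.05, against 4.84 to 8.67% of all genes, and 0 to 1 were lower. The macrophage median was 0.12 to 0.20, the complement median 0.098 to 0.14, the pan-leukocyte median 0.067 (without control replicate 3) to 0.15, and limma called 0 genes of the whole table in each of these 6 fits, where 1797 to 3084 genes had an unadjusted p below 0.05. Differences near 0 changed sign: Mrc1 was 0.022 after a further quantile normalization, 0.0075 with array weights, 0.064 without control replicate 1 and mutant replicate 2, and -0.079 to 0.057 with 1 array left out, where Cd68 ran from -0.062 to 0.029 and Ptprc from -0.063 to 0.030. The cause was not tested. Deviations of same-numbered arrays had correlations of -0.04, -0.06 and 0.07, and those of other mutant and control pairs ran from -0.09 to 0.14. Whether same-numbered arrays share a litter or a batch cannot be told from these values, and the labels do not say. With the replicate number as a block the members' median was 0.15. In that fit 11 members were higher at an unadjusted p under 0.05 by limma, against 6.80% of all genes. It called 0 members and 0 genes of the whole table, and the lowest member adjusted p by limma was 0.265. Centring each array on its median gave a members' median of 0.11, with all genes at -0.02. Signal over background was not given, so values of the dim members Ccr2, Cd163, Timd4, Mpeg1, Ms4a7 and Ptprc are the least certain.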

Other observations

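Some genes of macrophages or of antigen presentation stood out in 1 array, and Cd36 and Cebpa were chosen with their values in view. The fatty acid receptor gene Cd36, shared by macrophages and fat cells, was at 10.68 in mutant replicate 2 and at 7.93 and 7.59 in the other mutants, against 7.57, 7.51 and 7.59 in control lungs. Cebpa, a transcription factor of myeloid cells and of fat cells, was at 8.45 in mutant replicate 2 and at most 7.18 in each other array. The class II histocompatibility gene H2-Ab1, of antigen-presenting cells, was at 6.43, 6.45 and 6.39 in mutant lungs, against 8.03, 6.36 and 6.28 in control lungs, so control replicate 1 alone was high. The mast cell protease gene Cpa3 varied within both groups, at 6.61, 7.85 and 7.05 in mutant lungs and 6.59, 7.52 and 6.38 in control lungs.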
